A study of Mus musculus with 6 samples.

Results

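Cathepsins are proteases of the lysosome and endosome, the compartments in which cells break down what they take up and what autophagy delivers. Most are papain-like cysteine proteases, a few are aspartic proteases, and all are made as inactive precursors that are cut to the active form in acidic vesicles. In the ileum of suckling rodents the absorptive cells take up milk protein whole and digest it in large lysosomes, and macrophages and other antigen-presenting cells of the bowel wall use cathepsins to cut antigens and the invariant chain of MHC class II. The genes described here are the 10 cathepsin genes Ctsb, Ctsc, Ctsd, Ctse, Ctsh, Ctsk, Ctsl, Ctso, Ctss and Ctsz, taken by name from a table of 55487 genes. Each was found once in the table.

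The tissue was terminal ileum from C57BL/6 pups aged 9 days, with 3 NEC libraries and 3 control libraries by their labels. NEC is necrotizing enterocolitis, an inflammatory disease of the newborn bowel. The protocol on the labels induces it by gavage of a hyperosmolar formula, by bouts of hypoxia lasting 10 min at 5% O2, 3 daily over 4 days, and by lipopolysaccharide given orally on days 6 and 7 (4 mg/kg each day). That text stands on all 6 labels, so how the control pups were fed and handled is not given in the sources used here, and neither are the severity of disease, the sex of the animals or whether a library holds 1 animal or several. The p-values below therefore set group differences against the spread between libraries of a group, which may be partly technical.

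Values are given as FPKM (fragments normalised for the length of the transcript and the size of the library), the unit inferred for the deposited table, from an estimated 15.2 to 18.7 M fragments per library. Rn7s1, a gene of 7SL RNA, took 42.7% of all FPKM in NEC 1 and 27.3% to 32.2% elsewhere. Of the 15806 genes that averaged 1 FPKM or more, 7.69% were called higher and 30.6% lower in NEC, 38.2% in all, at an adjusted p under 0.05 (limma, Benjamini-Hochberg), and the groups did not overlap for 59.1%. The median log2 change of these genes was -0.26. After TMM scaling, which resets each library by a trimmed mean of its gene ratios, the median was 0.01 and 16.8% were called higher and 14.0% lower, so the change of each tested cathepsin gene is given on both scales. Related genes are given on the deposited scale, with the TMM result where the sign or the call differs. In bulk tissue, fewer cells of a type and less RNA per cell cannot be told apart.

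The labelled tissue was checked against its markers, and the NEC libraries differed from the controls in markers of bowel region. Epithelial markers summed to 1508 to 1771 FPKM in NEC and 1319 to 1433 in control. Of the 4 ileum markers, Fgf15, the bile acid-induced hormone of the ileum, was at 0.452, 0.0821 and 1.35 FPKM in NEC and 5.97, 5.55 and 5.88 in control (-2.14, adjusted p = 0.00519, limma, Benjamini-Hochberg), and passed in every alternative that tested it. The other 3, Fabp6, Slc10a2 and Cubn, did not pass. Their summed level with Fgf15 overlapped, at 98.1 to 174 FPKM in NEC and 139 to 149 in control, most of it from Cubn. Markers of the upper small intestine summed to 77.4 to 205 FPKM in NEC and 4.83 to 5.86 in control. Among these, Fabp1, a fatty acid-binding protein, was at 194, 145 and 70.6 FPKM in NEC and at most 0.781 in control (6.42, adjusted p = 0.000585), and Gata4, a transcription factor of the duodenum and jejunum, at 7.96, 7.28 and 3.74 against at most 0.184 FPKM (2.67, adjusted p = 0.00224, limma, Benjamini-Hochberg). Of the other 2 listed, Cybrd1 fell by 0.44 but did not pass after TMM scaling, and Pdx1 was not tested. A difference in the stretch of bowel sampled cannot be told apart from the NEC treatment in these libraries, and the part of region in the cathepsin results was not tested.

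Ctss and Ctsk lie side by side on chromosome 3, 17.4 kb apart on the same strand, and both were lower in NEC. RefSeq start sites gave promoter windows for 7 of the 10 genes, and Ctsb, Ctse and Ctsh had none. The 250 bases before the start of these neighbours (build GRCm38.p6, plus strand, chr3:95526536-95526785 for Ctss and chr3:95498960-95499209 for Ctsk) are shown because the genes share a locus and a direction. Capitals mark GAAANNGAA, the core letters of the element bound by interferon-activated factors, searched on both strands.
Ctss: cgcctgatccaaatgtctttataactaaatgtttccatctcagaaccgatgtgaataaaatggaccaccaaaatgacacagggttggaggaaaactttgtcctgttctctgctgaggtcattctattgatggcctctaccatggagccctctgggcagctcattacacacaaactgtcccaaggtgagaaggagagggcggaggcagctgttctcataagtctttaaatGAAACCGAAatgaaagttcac
Ctsk: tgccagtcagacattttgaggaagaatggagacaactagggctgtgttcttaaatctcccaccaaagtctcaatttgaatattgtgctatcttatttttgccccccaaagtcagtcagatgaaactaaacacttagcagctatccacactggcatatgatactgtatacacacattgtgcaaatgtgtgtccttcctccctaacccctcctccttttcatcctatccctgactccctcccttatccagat
The match in Ctss begins 21 bases before the start, and the Ctsk stretch holds none. GAAANNGAA was present in 8.56% of 32851 promoter windows of 300 bases (250 before and 50 after a start). Among the windows of the cathepsin genes it was in 2 of 7, those of Ctss and Ctso, where a pair of overlapping matches lies just after the start. GAGGAAGT, letters of a site for the myeloid factor PU.1, was in 3.20% of windows and in those of Ctss and Ctsc. Both motifs were picked after the sequences had been seen, so these shares are no test of an excess among the cathepsin genes.

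The second set of sequences shows the letters CACGTG, in capitals, the centre of the element bound by TFEB and its relatives, which drive lysosomal genes. They stood in 7.15% of the 32851 windows and in those of Ctsd, at 2 places, and of Ctsl. CACGTG reads the same on both strands, and none of the matches of the other motifs overlapped it. The stretches lie on the minus strand at chr7:142388048-142388077 and chr7:142387908-142387937 for Ctsd and at chr13:64370739-64370768 for Ctsl. The Ctsd stretch nearer the start and the Ctsl stretch overlap annotated exons of longer Ctsd and Ctsl transcripts.
Ctsd, 245 bases before the start: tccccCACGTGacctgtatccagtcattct
Ctsd, 98 bases before the start: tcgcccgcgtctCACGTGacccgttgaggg
Ctsl, 236 bases before the start: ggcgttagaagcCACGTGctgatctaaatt
CACGTG too was picked after the sequences had been seen, so its share of windows is no test of an excess. The letters are a description of these windows, and the series holds no measurement of binding.

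Of the 9 cathepsin genes that averaged 1 FPKM or more, 5 were lower in NEC, none was higher and 4 did not pass (limma, Benjamini-Hochberg). Over all tested genes 30.6% were called lower and 7.69% higher. On the deposited scale no cathepsin gene was higher at an unadjusted p under 0.05 either. With TMM scaling Ctsz was (0.34, unadjusted p = 0.0273, limma, not passing after adjustment). Ctsh, Ctsl, Ctsk and Ctss fell by 1.45, 1.21, 1.09 and 0.87 on the log2 scale of FPKM + 1, and Ctsb fell by 0.39. Ctso, Ctsd, Ctsc and Ctsz did not pass, and Ctse was too weakly expressed for the filter. The median change of the 9 was -0.39, beside -0.26 over all tested genes, and 6 of the 9 had groups that did not overlap, beside 59.1% of all genes. With TMM scaling 4 were lower, beside 14.0% of all tested genes, the Ctsb call being lost, and the median was -0.05 beside 0.01. TMM factors taken from all genes of the table left the same 4 lower and Ctsz higher, where 22.5% of tested genes were called higher and 10.1% lower. These calls had been seen before the gene set of the main TMM scaling was chosen. Quantile normalization also left 4 lower. Without control 2 there were 3, since Ctsl and Ctsb no longer passed, and without NEC 1, the library with the largest share of Rn7s1, there were 6, Ctso being added. The markers of the upper small intestine given above moved between the same groups.

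**Figure D1:**
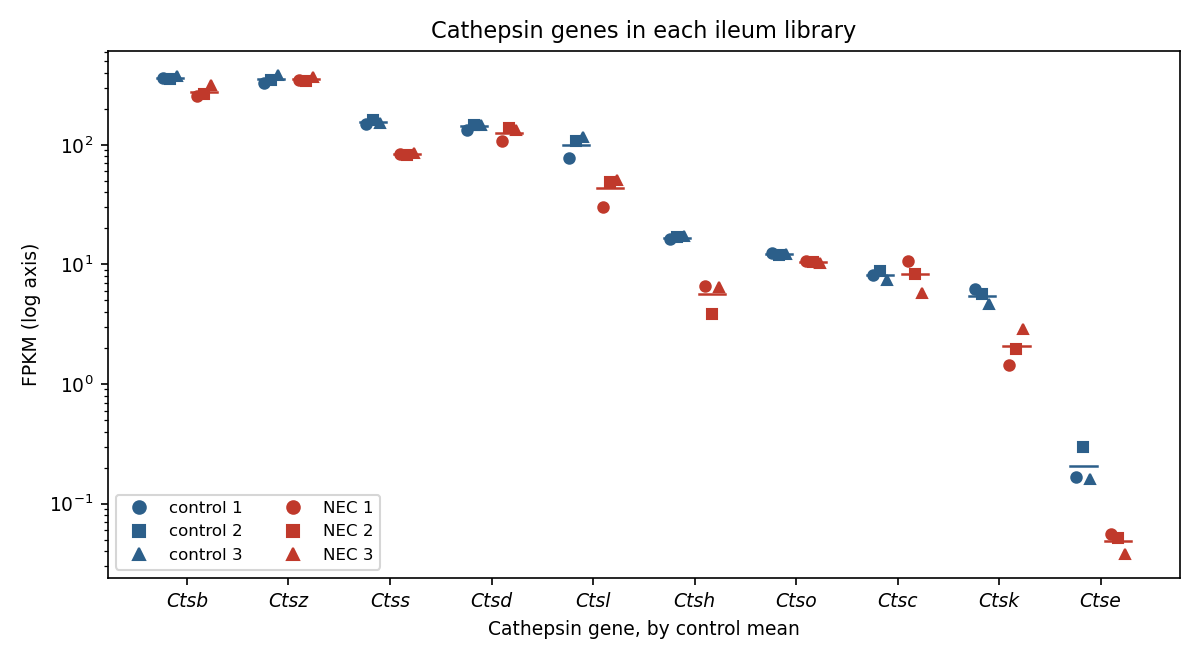
FPKM of the 10 cathepsin genes in each library on a log axis, in order of the control mean; points are libraries and short lines are group means. NEC and control points are separate for Ctsb, Ctss, Ctsl, Ctsh, Ctso, Ctsk and Ctse and overlap for Ctsz, Ctsd and Ctsc.

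FPKM allows levels to be compared between genes. In control ileum the order ran from Ctsb (364 ± 11.2 FPKM, SD, n = 3, as for every mean that follows) and Ctsz (353 ± 28.8), which overlapped, through Ctss (154 ± 5.63), Ctsd (143 ± 8.38), Ctsl (99.8 ± 20.0), Ctsh (16.7 ± 0.511), Ctso (12.3 ± 0.185), Ctsc (8.17 ± 0.718) and Ctsk (5.49 ± 0.750) to Ctse (0.207 ± 0.0760). All other neighbours in this order were apart in the 3 libraries, Ctss and Ctsd by little, at a lowest Ctss value of 149 FPKM against a highest Ctsd value of 148. In NEC ileum Ctsz (352 ± 12.5) came before Ctsb (278 ± 32.5), Ctsd (126 ± 16.7) before Ctss (83.7 ± 2.05), and Ctso (10.5 ± 0.184) and Ctsc (8.23 ± 2.44) before Ctsh (5.65 ± 1.56). Ctso overlapped Ctsc, and Ctsc overlapped Ctsh, in NEC.

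Ctss, a cysteine endopeptidase of antigen-presenting cells that trims the invariant chain and stays active near neutral pH (chr3:95526786-95556403), was at 83.8, 81.5 and 85.6 FPKM in NEC 1, 2 and 3 and at 149, 160 and 152 in control 1, 2 and 3. The NEC libraries lay within a few FPKM of each other and all far below the controls. The log2 change was -0.87 (SE 0.09, adjusted p = 0.00293, limma, Benjamini-Hochberg) and -0.53 with TMM scaling (adjusted p = 0.0146). It passed in all 18 alternative settings, at -0.94 to -0.41.

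Ctsl, a broad-acting cysteine endopeptidase of lysosomes (chr13:64359337-64370890), was at 30.2, 48.4 and 50.7 FPKM in NEC and at 77.2, 107 and 115 in control. NEC 1 was the lowest of the NEC libraries and control 1 the lowest control, and the groups did not overlap. The change was -1.21 (SE 0.24, adjusted p = 0.0136, limma, Benjamini-Hochberg), and -0.87 with TMM scaling (adjusted p = 0.0228). Without NEC 1 it was -0.98 and still passed. Without control 2 it was -1.15 and no longer passed (adjusted p = 0.0582). The 7 annotated transcripts of Ctsl range widely in length, so its FPKM depends on how fragments were shared among them. An antisense gene, Gm47123, which shares 26.8% of the exonic bases of Ctsl, was listed at 0 in every library.

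Ctsk, the collagen-cleaving cathepsin known from osteoclasts and also made by fibroblasts (chr3:95499256-95509362), was at 1.45, 1.97 and 2.87 FPKM in NEC and at 6.18, 5.60 and 4.69 in control. It has 1 annotated transcript, and its values correspond to 37.0, 54.0 and 81.0 fragments in NEC and 146, 129 and 115 in control. The lowest control lay above the highest NEC library on both counts. The change was -1.09 (SE 0.19, adjusted p = 0.0101) and -0.83 with TMM scaling (adjusted p = 0.0131, limma, Benjamini-Hochberg). It passed in each of the 17 alternatives that tested it. The filter at a mean of 5 FPKM left it out.

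Beside Ctsk, fibroblast markers moved the same way. All 7 tested markers (Col1a1, Col1a2, Col3a1, Pdgfra, Dcn, Lum and Dpt) were lower, beside 30.6% of all tested genes, with a median log2 change of -1.85. Their sum was 91.4, 259 and 303 FPKM in NEC 1, 2 and 3 and 679, 703 and 558 in control 1, 2 and 3. NEC 1 was far below the other NEC libraries, and it was also the lowest for Ctsk. With TMM scaling 5 of the 7 were lower, without NEC 2 there were 4, and without any 1 control none passed. None was at 0 in all libraries. Smooth muscle markers summed to 114, 479 and 508 FPKM in NEC and 676, 725 and 603 in control, and 0 of 5 were called. Without NEC 1, 3 of the 5 were lower, beside 5371 of 16029 genes. With array weights 1 was lower, beside 5932 of 15806 genes, and no other setting called any. The part of either list in the Ctsk result was not tested.

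Ctsb, an endopeptidase that also removes dipeptides from the C-terminal end (chr14:63122462-63145923), was at 256, 263 and 315 FPKM in NEC and at 361, 354 and 376 in control. The groups were separate, NEC 3 lying nearest to the controls. Its change, -0.39 (SE 0.12) at an adjusted p = 0.0414 in limma (Benjamini-Hochberg), was only a little below the median of all genes and became -0.05 with TMM scaling (adjusted p = 0.743), where the groups overlapped. With TMM factors from all genes it was 0.069. The call was kept in 7 of 18 alternatives and lost without NEC 2 or any 1 of the controls (adjusted p = 0.104 to 0.125). The gene Fdft1 on the other strand shares 12.8% of the exonic bases of Ctsb and was at 6.11 to 12.0 FPKM, and without a stated strand setting their reads cannot be told apart there.

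Ctso, a papain-like cathepsin of which less is known (chr3:81932601-81956725), was the least variable: 10.7, 10.5 and 10.3 FPKM in NEC and 12.4, 12.1 and 12.3 in control. The groups did not overlap, but the step between them was small. The log2 change was -0.21 (SE 0.08, adjusted p = 0.0788), close to the median of all genes, and 0.11 with TMM scaling, where the groups overlapped. It passed as lower in 2 of 18 alternatives, with array weights and without NEC 1 (adjusted p = 0.0270 and 0.0309, limma, Benjamini-Hochberg), and the iteration that sets the array weights stopped short of its tolerance.

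The exopeptidases trim residues from the ends of proteins. Ctsh, an aminopeptidase (chr9:90054152-90076089), had the largest fall among the 9 on both the deposited and the TMM scale. It was at 6.58, 3.84 and 6.52 FPKM in NEC and at 16.2, 16.9 and 17.2 in control. The controls were close together and far above the highest NEC library. The change was -1.45 (SE 0.18, adjusted p = 0.00527), and -1.14 with TMM scaling (adjusted p = 0.0135, limma, Benjamini-Hochberg). It passed in all 18 alternatives. Ctsh has 11 annotated transcripts, so its FPKM also depends on how fragments were divided.

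Ctsz, a carboxypeptidase (chr2:174427493-174439039), was at 347, 344 and 367 FPKM in NEC and at 329, 346 and 385 in control. The NEC values lay inside the range of the controls. The log2 change was 0.00 (SE 0.11, 95% interval -0.26 to 0.26, adjusted p = 0.991, limma, Benjamini-Hochberg). With TMM scaling it was 0.34 (adjusted p = 0.0732), and the rescaled NEC values, 373 to 440, were all above the controls, 291 to 346. With TMM factors from all genes it was 0.46 and passed as higher (adjusted p = 0.0395, limma, Benjamini-Hochberg), the only one of 18 alternatives in which it was called. The medians of all genes on these 3 scales were -0.26, 0.01 and 0.10.

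Ctsc, a dipeptidyl peptidase that activates the granule proteases of neutrophils, mast cells and cytotoxic lymphocytes (chr7:88278085-88310888), was at 10.7, 8.24 and 5.79 FPKM in NEC and at 8.22, 8.86 and 7.43 in control. NEC 1 was above and NEC 3 below every control. The change was -0.02 (SE 0.20, 95% interval -0.50 to 0.45) and 0.29 with TMM scaling, passing on neither. None of the 12 granule protease genes listed reached the filter. Their sum was 1.63 to 2.21 FPKM in NEC and 2.67 to 5.23 in control. Elane, neutrophil elastase, overlapped, at 0.540, 0.392 and 0.381 against 0, 0.601 and 0.502 FPKM. Neutrophil markers summed to 62.4, 67.2 and 60.5 FPKM in NEC and 9.12, 65.3 and 66.0 in control. Control 1 thus stood apart from the other libraries in these markers. The mast cell proteases Mcpt2 and Cpa3 were lower in every NEC library, at levels under 1 FPKM throughout. Mcpt2 was at 0.111, 0.156 and 0.101 against 0.543, 0.619 and 0.465 FPKM, and Cpa3 at 0.0389, 0 and 0.106 against 0.380, 0.650 and 0.244. Mcpt1 overlapped. Without the filter 3 of 11 listed genes were called lower and 0 higher, beside 5139 lower of 33583 genes (limma, Benjamini-Hochberg).

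The aspartic cathepsins differ from the rest in their catalytic residues. Ctsd, the main aspartic protease of lysosomes (chr7:142375911-142388038), was at 107, 137 and 134 FPKM in NEC and at 133, 147 and 148 in control. The groups overlapped through control 1. The change was -0.19 (SE 0.13, 95% interval -0.49 to 0.12, adjusted p = 0.273, limma, Benjamini-Hochberg). With TMM scaling it was 0.16 and did not pass (adjusted p = 0.228). A predicted gene on the same strand, Gm49369, shares 34.4% of its exonic bases and stood at 0.506 to 1.74 FPKM.

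Ctse, an endosomal aspartic protease known from gastric epithelium and immune cells (chr1:131638306-131675505), was at 0.0559, 0.0520 and 0.0380 FPKM in NEC and at 0.166, 0.295 and 0.160 in control. These values correspond to about 2.01, 2.01 and 1.51 fragments in NEC and 5.53, 9.54 and 5.53 in control when its longest transcript is used. The NEC libraries were all lower, at a depth of a few fragments. Tested only without a filter, its change was -0.20 (SE 0.05) with an adjusted p of 0.0470 in limma (Benjamini-Hochberg), which the added 1 FPKM keeps small. Of 8 stomach markers in the table, Gkn2, Tff1, Gif and Atp4b were at 0 in all libraries, and the 8 summed to at most 0.340 FPKM.

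**Figure D2:**
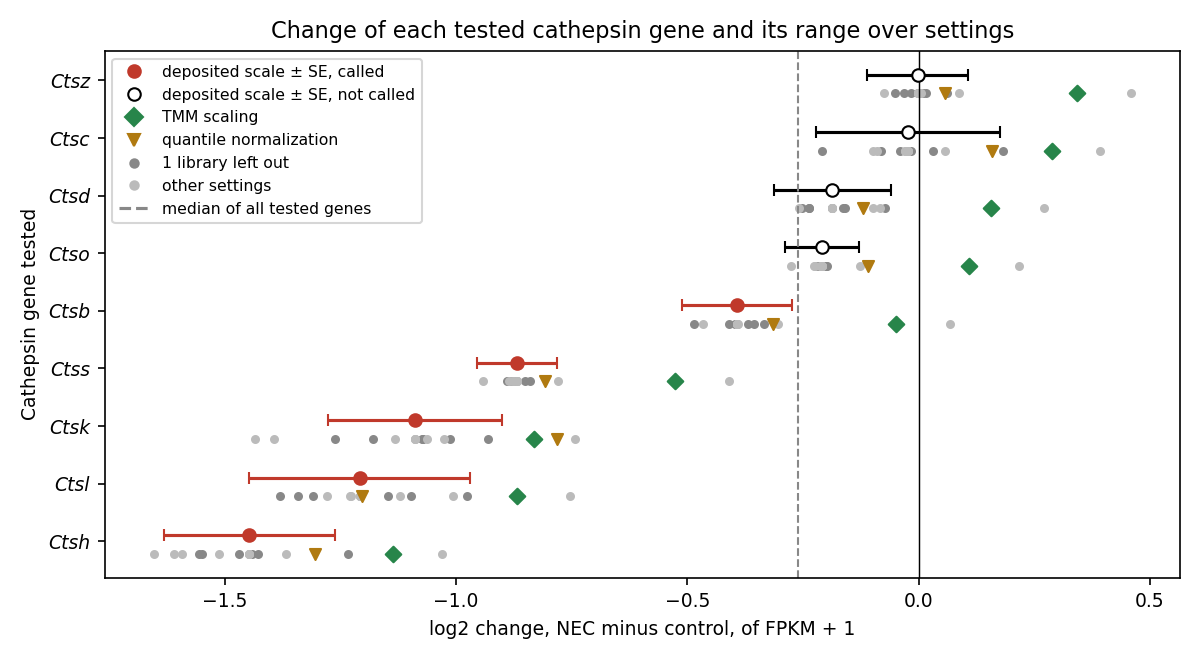
Log2 change (NEC minus control, FPKM + 1) of the 9 tested cathepsin genes on the deposited scale with its SE, and below it the value under each alternative setting. Ctsh, Ctsl, Ctsk and Ctss stay at -0.41 or below in all settings that tested them, while the TMM values of Ctso, Ctsd, Ctsc and Ctsz lie above 0.

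Shares of the summed cathepsin FPKM do not depend on how libraries are scaled against each other. The 10 genes summed to 852, 898 and 978 FPKM in NEC 1, 2 and 3 and to 1093, 1158 and 1218 in control 1, 2 and 3. Cathepsin genes outside the 10, such as Ctsa, are not in this sum. Ctsz made up 40.7%, 38.2% and 37.5% of the sum in NEC and 30.1%, 29.9% and 31.6% in control. Its share was larger in every NEC library than in any control. A share also rises where the other genes fall, and the FPKM of Ctsz itself was 352 ± 12.5 in NEC and 353 ± 28.8 in control. Ctss made up 9.83%, 9.08% and 8.76% in NEC and 13.6%, 13.8% and 12.5% in control, and Ctsl 3.54%, 5.39% and 5.19% against 7.07%, 9.26% and 9.45%. These shares were smaller in every NEC library, and the shares of Ctsh and Ctsk were too, at 0.622% ± 0.176 and 0.227% ± 0.0624 in NEC against 1.45% ± 0.0361 and 0.478% ± 0.0903 in control. The share of Ctsb overlapped, at 30.5% ± 1.54 and 31.5% ± 1.33. Ctsd ran from 12.5% to 15.2% in NEC and 12.1% to 12.7% in control, an overlap through NEC 1 and control 2.

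**Figure D3:**
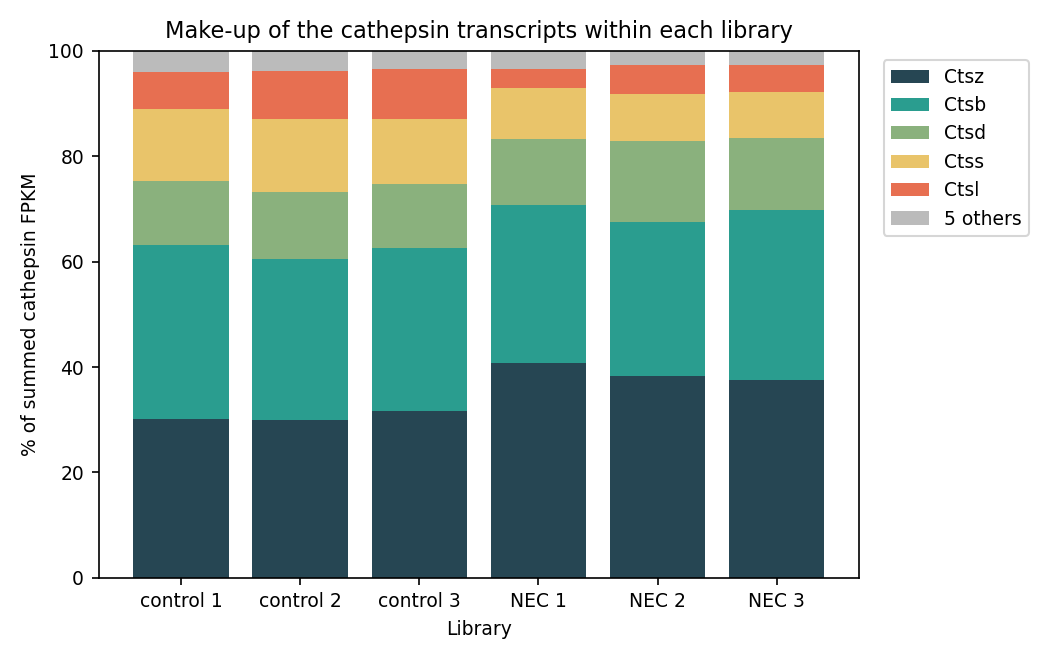
Share of the summed FPKM of the 10 cathepsin genes (%) held by the 5 most abundant of them and by the 5 others together in each library. The Ctsz segment is larger in the NEC bars (37.5% to 40.7%) than in the control bars (29.9% to 31.6%), and the Ctss and Ctsl segments are smaller.

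Ratios of pairs of genes within a library are likewise free of the scaling. The Ctsz to Ctss ratio was 4.14, 4.21 and 4.28 in NEC and 2.21, 2.16 and 2.54 in control. The Ctsl to Ctsd ratio was 0.283, 0.354 and 0.378 against 0.581, 0.729 and 0.779. For both pairs the groups were far apart, which shows unequal change of the genes within the pair and not which of them changed. The pairs were picked after the values had been seen, so their separation adds no support to the changes of the single genes. The neighbours Ctsk and Ctss did not separate: their ratio was 0.0173, 0.0241 and 0.0335 in NEC and 0.0415, 0.0351 and 0.0309 in control, so NEC 3 lay inside the control range.

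The tested protein-coding genes closest to Ctsh, by the Euclidean distance of centred log2 values over the 6 libraries, were Gal3st2, a sulfotransferase (distance 0.31), Lypd8, a secreted protein of gut epithelium (0.33), and C1d, a nuclear RNA-processing cofactor (0.40). Lypd8 had values of 134, 97.4 and 149 FPKM in NEC and 348, 337 and 283 in control, and Gal3st2 at 1.72, 0.887 and 2.11 against 7.11, 6.82 and 6.30. C1d measured 2.96, 2.51 and 2.90 against 8.83, 9.20 and 8.92 FPKM. NEC 2 was lowest in each of these genes, as it was for Ctsh. Such likeness follows from choosing the nearest genes on these same values. Ctsz had the highest change of the 9, though no rise on the deposited scale. Closest to it were Golga2, a Golgi matrix protein (distance 0.065), the predicted gene Gm37988 (0.070) and Trappc3, a subunit of a vesicle tethering complex (0.073), none of which passed.

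Genes that inhibit, deliver or work beside cathepsins were counted in lists that do not hold the 10. Their counts stand beside 7.69% of all tested genes called higher and 30.6% lower, or 16.8% and 14.0% with TMM scaling. Of the other cathepsin genes, Ctsf, a cysteine cathepsin, fell by 0.74 (adjusted p = 0.0145, limma, Benjamini-Hochberg), from 1.88 ± 0.222 to 0.737 ± 0.271 FPKM, a call lost without control 1 or control 2. Ctsa, a serine carboxypeptidase that protects lysosomal sialidase and galactosidase, averaged 92.9 ± 6.98 FPKM in NEC and 111 ± 4.97 in control and did not pass (-0.25, adjusted p = 0.0806, and 0.09 with TMM scaling). Ctsg and Ctsw, of neutrophils and cytotoxic lymphocytes, stayed under 0.35 FPKM, and the 9 placental-type cathepsin genes were at 0 in all libraries.

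Among 6 tested inhibitors 2 were higher, 1 was lower and 3 did not pass, with a median of 0.57. Cst3, the secreted inhibitor cystatin C, had values of 16.9, 21.3 and 24.8 FPKM in NEC and 37.2, 39.7 and 38.2 in control (-0.85, SE 0.14, adjusted p = 0.00936). Serpinb1a, an inhibitor of neutrophil serine proteases and cathepsin G, was at 206, 184 and 148 against 92.7, 83.6 and 89.5 FPKM (0.996, SE 0.14, adjusted p = 0.00655, limma, Benjamini-Hochberg). The groups were separate for both, in opposite directions. Serpinb6a, an intracellular serpin, rose by 0.69, a call lost without control 2. Cstb, the intracellular cystatin B, was at 58.4 ± 10.4 and 39.6 ± 7.90 FPKM and did not pass (adjusted p = 0.0595). With TMM scaling 4 inhibitors were higher and 1 lower, Cstb among the former (adjusted p = 0.0324).

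Of 12 genes for processing and delivery to lysosomes, 1 was higher, 3 were lower and 8 did not pass. Lgmn, the asparaginyl endopeptidase legumain that processes several cathepsins, measured 578, 601 and 915 FPKM in NEC and 1045, 1028 and 1120 in control. Its change of -0.64 (adjusted p = 0.0443) was -0.29 and not called with TMM scaling. Gnptg, a subunit of the enzyme that makes the mannose 6-phosphate tag, and Psap, the saposin precursor, were lower by 0.41 each, and neither passed with TMM scaling (adjusted p = 0.360 and 0.536, limma, Benjamini-Hochberg). Gga1, a sorting adaptor, was higher by 0.36, and by 0.68 with TMM scaling. The mannose 6-phosphate receptor genes M6pr and Igf2r did not pass, at -0.18 and -0.26, or 0.14 and 0.08 with TMM scaling. No gene of this list passed without any 1 control, without NEC 2 or with the replicate number as a block. None of the 3 tested genes for TFEB and its relatives passed in limma, or had an unadjusted p under 0.05, and none passed with TMM scaling.

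In the antigen processing list 5 of 6 genes were lower and 1, Ifi30, a thiol reductase of endosomes, did not pass. H2-Aa and H2-Eb1, chains of MHC class II, fell by 1.01 and 0.89, and H2-Ab1 and H2-DMb1 by 0.82 and 0.61. The H2-Ab1 call was lost with TMM scaling (-0.55, adjusted p = 0.0519, limma, Benjamini-Hochberg), and that of H2-Aa with TMM factors from all genes. Cd74, the invariant chain that Ctss trims, is named here after its values were seen. Its values were 15.4, 12.8 and 11.3 FPKM in NEC and 25.9, 29.0 and 20.1 in control, a change of -0.87 (adjusted p = 0.0130) that did not pass with TMM scaling (-0.54, adjusted p = 0.0916). With that scaling 3 genes were lower and Ifi30 was higher (0.34, adjusted p = 0.0348, limma, Benjamini-Hochberg). Without control 1 and control 2 the list had 4 and 3 lower, and quantile normalization left 3.

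Beside Ctss, Ctsh and these genes, 3 of 9 tested macrophage markers (Adgre1, C1qa and C1qb) were lower, none was higher and 6 did not pass, beside 30.6% of all genes called lower. None of the 12 listed was at 0 throughout. Their sum was 101 to 115 FPKM in NEC and 101 to 131 in control, an overlap, with most of it from Lyz2, Csf1r and Mertk. Csf1r, the receptor that macrophages need, averaged 24.1 ± 1.57 FPKM in NEC and 20.9 ± 1.51 in control (0.19, adjusted p = 0.153), while Adgre1, which encodes F4/80, fell by 0.87 (adjusted p = 0.0183, limma, Benjamini-Hochberg). Without control 1, without control 2 or with quantile normalization none of the 9 passed, and without NEC 2 and NEC 3 there were 2 and 5 lower. With array weights 6 were lower and 1 higher. With TMM scaling Csf1r and Mertk were higher (0.52 and 0.42) and Adgre1 lower. Dendritic cell markers summed to 2.44 to 3.03 FPKM in NEC and 3.88 to 5.12 in control, B cell markers to 1.08 to 3.34 and 2.78 to 4.75. Their part in the cathepsin results was not tested. Enterocyte markers were higher in 9 of 9, beside 7.69% of all tested genes, and also in 9 with TMM scaling. They summed to 13035 to 15908 FPKM in NEC and 3702 to 4522 in control. Without control 1, and likewise without control 2, 7 of the 9 passed as higher, and the Anpep call was lost in 10 alternatives.

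Of 23 other lysosomal genes 2 were higher, 6 were lower and 15 did not pass, with a median of -0.18. Npc2, which carries cholesterol out of lysosomes, averaged 27.9 ± 4.35 FPKM in NEC and 50.0 ± 2.22 in control (-0.83, adjusted p = 0.00770, limma, Benjamini-Hochberg) and passed in every alternative. Scarb2, a lysosomal membrane protein, and Man2b1, a mannosidase, fell by 0.55 and 0.57, both calls lost with TMM scaling (-0.22 and -0.23). Lipa, the acid lipase, was higher by 1.21. Without any 1 of the controls 1 was higher and 2 were lower, and without NEC 2 they were 1 and 4. With TMM scaling 7 were higher and 1, Npc2, lower (-0.49, adjusted p = 0.0125, limma, Benjamini-Hochberg), and the median was 0.15.

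**Figure D4:**
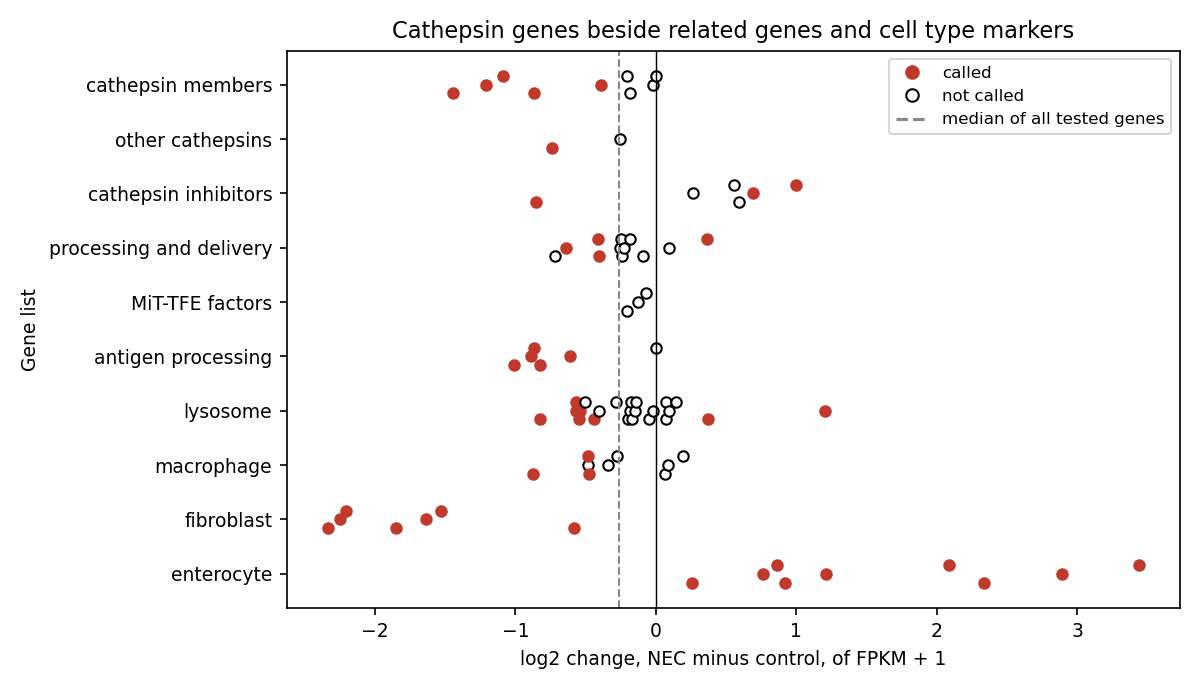
Log2 change (NEC minus control, FPKM + 1) of each tested gene in 10 lists, filled where called; the dashed line is the median of all tested genes, -0.26. The 5 called cathepsin genes lie left of that line, beside antigen processing genes lower in 5 of 6 and fibroblast markers lower in 7 of 7.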

How the data were processed

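Per the submitters' processing notes, the authors used HISAT2, SAMtools 1.3.1 and Cuffdiff with build mm10, and per the labels' protocols total RNA with an integrity number above 7 went into paired-end TruSeq libraries. Other versions, the gene models and the strandedness of counting are not given in the sources used here. No unit is named in the deposited table. FPKM, which Cuffdiff gives, was taken as the unit of the authors' values, also because in single-transcript genes 98.7% to 98.8% of values below 100 fragments per library were whole multiples of 1 fragment within 0.01. Those steps gave the depth, an estimate. Columns beginning with N were read as NEC.

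Of 55487 identifiers, 55227 matched GENCODE mouse release M21 (GRCm38, the same build), the source of symbols and coordinates. The test was limma 3.58.1 (R 4.3.3), two-sided, on log2(FPKM + 1) of genes that averaged 1 FPKM or more, with its trended prior variance and Benjamini-Hochberg adjustment over all of them. Such fold changes understate those of low genes. The TMM factors are unweighted means of gene ratios over genes that averaged 1 FPKM or more, after removal of the outer 30% of ratios and the outer 5% of levels on either side. That gene set was chosen after the calls with factors from all genes had been seen, to follow an earlier analysis of these data, and the latter are given as an added alternative. The fit was tested on simulated data. The cathepsin genes and all lists were chosen with earlier results of these data known. All cathepsin genes are named, with up to 4 called genes of smallest p per list, any called against the majority of its list, and the 3 genes nearest to the largest fall. The rule also names the 3 genes nearest to the largest rise, applied to Ctsz although it did not rise. Other list members are given as examples outside this rule. Motifs and ratio pairs were picked after seeing the sequences and values. Figures used matplotlib 3.10.9 in Python 3.11.15.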

Additional observations from a re-analysis of the deposited data

How the results depend on the processing

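The falls of Ctsh and Ctss passed in all 18 alternatives, and that of Ctsk in the 17 that tested it. The fall of Ctsl passed in all but the setting without control 2. Of the 18, 16 are counted as planned and 2 as added: library sizes from protein-coding genes other than the top 100, and TMM factors from all genes. The TMM scaling counted as planned uses a gene set chosen after the calls with factors from all genes had been seen. With TMM factors from all genes Ctsb turned to 0.069 (adjusted p = 0.652) and Ctsz to 0.46 (adjusted p = 0.0395, limma, Benjamini-Hochberg), which made 1 cathepsin gene higher. Cathepsin genes called lower numbered 3 to 6 when 1 library was left out, 3 without control 2, and 0 were higher in each of these. Genes called across the table were 1215 higher and 4829 lower; leaving out 1 library gave 471 to 1566 and 917 to 5378. With TMM scaling they were 2638 and 2204, with TMM factors from all genes 3532 and 1593, with quantile normalization 2202 and 2387, with totals without Rn7s1 645 and 3200, and with a filter at 5 FPKM 1746 were lower, from fewer genes tested. In the fixed lists of related genes, 5 were higher and 16 lower; TMM scaling gave 13 and 6, TMM factors from all genes 14 and 5, totals without Rn7s1 3 and 10, and leaving out 1 library 2 to 5 and 6 to 20. Whether the replicate numbers pair the libraries is not given in the sources used here. Deviations from the group means correlated at -0.05, -0.01 and -0.07 for same-numbered libraries and at -0.03 to 0.08 for the others. Deviations of 3 libraries from their own mean sum to 0, so these correlations cannot decide it. With the replicate number as a block, 856 genes were higher and 3230 lower, 3 list genes were higher, and 4 cathepsin genes were lower, Ctsb not passing (adjusted p = 0.0814, limma, Benjamini-Hochberg). Causes of these shifts were not tested. Depth limits Ctse, at a few fragments per library.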
